A study of Mus musculus with 48 samples.

Results

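The Sprouty genes Spry1, Spry2 and Spry4 and the Spred genes Spred1, Spred2 and Spred3 encode intracellular inhibitors of the Ras-ERK pathway. They were chosen by symbol from the deposited count tables, and all 6 were found among the 47480 symbols of each table. Each was followed in stretched and non-stretched C2C12 cells at 1, 3 and 6 h, before and after differentiation.

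C2C12 is an established mouse myoblast line that grows as single cells and fuses into multinucleated myotubes when serum is reduced. RNA-seq was made from undifferentiated myoblasts in fetal bovine serum and from cells differentiated in horse serum, on flexible collagen-coated membranes that were stretched cyclically in both directions of the plane for 1, 3 or 6 h. Non-stretched cells of the same stage and time were kept on the same kind of membrane without stretch. Each of the 12 groups held 4 libraries, 24 per stage. Sums of counts ran from 48447318 to 77080730 per library, with a median of 61391637. Sample titles carry codes whose meaning the labels do not give, B27 and B31 in myoblasts (1 title reads B231 and was taken with B31) and B25 and B28 in differentiated cells, so that stage and code cannot be told apart. The single library with code B17, stretched replicate 4 of differentiated cells at 1 h, stood apart for several genes, and values without it are given where it changes a member's call. As no other library has its code, a model with the title code also takes it out of the estimates. Over all genes, a chi-square per gene between libraries of a group was 62.4 to 108 for that library against its group. It was higher for stretched replicate 7 of myoblasts at 1 h (115 to 188), and 87.6 to 96.8 for non-stretched replicate 7 of that stage and time. The study's methods describe separate samples from more than 1 independent experiment per stage, with several samples of an experiment in a group, but not which library came from which. The labels do not say that replicates were separate cultures, so p-values measure only the spread between these libraries, part of which may be technical. The labels name nuclear RNA as the molecule, whereas the study's methods describe extraction from cells.

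In this pathway, growth factors bind receptor tyrosine kinases, adaptors load Ras with GTP, and a cascade of kinases that ends in ERK is then activated. ERK switches on immediate early genes and also genes for its own inhibitors, among them Sprouty and Spred proteins and dual-specificity phosphatases (Dusp). Sprouty proteins act between the receptor and the kinase cascade, Spred proteins bring neurofibromin (Nf1) to the membrane to switch Ras off, and Spry1 is known in skeletal muscle for the return of stem cells to quiescence after injury.

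Positions are from the GENCODE annotation of build mm10. Spry1 lies on the plus strand at chr3:37639947-37644598 with 3 annotated transcripts, and Spry2 on the minus strand at chr14:105891947-105896819 with 1. Spry4 lies on the minus strand at chr18:38586247-38601415 with 1 transcript. Spred1 lies on the plus strand at chr2:117121374-117182279 with 2 transcripts, Spred2 on the plus strand at chr11:19924375-20024026 with 3, and Spred3 on the minus strand at chr7:29158829-29170411 with 4. The share of each gene's 31-base words that also occurs in another gene's exons was 4.20% for Spred2, 0.878% for Spry2, 0.209% for Spred3 and 0 for the other members, so few reads could be split with a copy. Genes annotated on the opposite strand overlap Spry1 (Gm42922), Spry4 (Gm27369 and Gm27804) and Spred3 (Ggn). The library kit keeps strand, but use of strand in the counting is not given in the sources used here, so reads of these 3 members and of their antisense partners may not be separated.

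The 6 proteins share a cysteine-rich C-terminal Sprouty domain. Spry2 is the family member best known for binding Cbl and Grb2, and Spred proteins carry an N-terminal EVH1 domain that Sprouty proteins lack. Spred1 and Spred2 bind Kit and Nf1, and Spred3 is the least studied of the 3.

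The RefSeq promoter table (build GRCm38.p6, 250 bases before to 50 after the start) held 5 of the 6 members, not Spry4. RefSeq starts were not always the GENCODE starts given above. The Spred1 window lies wholly before the GENCODE start of that gene, and the Spred3 window lies within its gene. The first pair shown is Spred1 and Spred2, which rose together in stretched myoblasts at 3 h. The promoter of Spred1 spans chr2:117120821-117121120 on the plus strand (GC 72.3%) and that of Spred2 chr11:19924192-19924491 on the plus strand (GC 57.0%). Capitals mark CGGAAG, a form of the site bound by ETS factors, and TGACG, each on either strand. Other forms of the ETS site were not searched, so a window without CGGAAG may still hold them.
Spred1: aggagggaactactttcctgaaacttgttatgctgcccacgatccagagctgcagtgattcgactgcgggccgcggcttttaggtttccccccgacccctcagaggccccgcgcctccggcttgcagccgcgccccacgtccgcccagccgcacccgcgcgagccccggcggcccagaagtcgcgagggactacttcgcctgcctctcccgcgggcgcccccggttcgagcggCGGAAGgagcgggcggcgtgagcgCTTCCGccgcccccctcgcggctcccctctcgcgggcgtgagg
Spred2: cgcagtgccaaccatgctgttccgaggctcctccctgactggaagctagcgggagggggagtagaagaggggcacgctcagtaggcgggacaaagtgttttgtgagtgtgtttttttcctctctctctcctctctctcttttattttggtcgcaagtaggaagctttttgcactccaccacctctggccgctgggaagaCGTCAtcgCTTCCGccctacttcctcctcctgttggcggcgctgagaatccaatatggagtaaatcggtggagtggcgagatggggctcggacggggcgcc

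The second pair is Spry1 and Spry2, which fell together in stretched differentiated cells at 6 h. The promoter of Spry1 spans chr3:37639697-37639996 on the plus strand (GC 64.3%) and that of Spry2 chr14:105896770-105897069 on the minus strand (GC 62.7%). No searched motif occurred in either, so no letter is in capitals.
Spry1: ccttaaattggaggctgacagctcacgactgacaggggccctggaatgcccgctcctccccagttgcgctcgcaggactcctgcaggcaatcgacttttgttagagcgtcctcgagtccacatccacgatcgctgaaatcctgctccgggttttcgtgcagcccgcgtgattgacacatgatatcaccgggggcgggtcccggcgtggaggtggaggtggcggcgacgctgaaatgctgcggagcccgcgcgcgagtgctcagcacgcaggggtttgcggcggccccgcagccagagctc
Spry2: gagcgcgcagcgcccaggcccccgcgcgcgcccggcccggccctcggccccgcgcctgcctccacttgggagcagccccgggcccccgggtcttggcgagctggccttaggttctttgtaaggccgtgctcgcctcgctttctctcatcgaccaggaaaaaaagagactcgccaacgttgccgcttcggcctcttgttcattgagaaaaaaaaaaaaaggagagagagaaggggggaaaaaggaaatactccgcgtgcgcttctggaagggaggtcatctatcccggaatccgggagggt

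CGGAAG occurred at 2 places in the Spred1 window and at 1 in the Spred2 window, beside 1 TGACG. None of the searched motifs was found in the windows of Spry1, Spry2 and Spred3. Among 32851 mouse promoter windows of the same length, 16.9% held CGGAAG, 7.81% the AP-1 motif TGANTCA, 1.79% the cyclic AMP element TGACGTCA, 20.8% its contained part TGACG, 16.3% the E-box CAGCTG and 1.63% a CArG box. Both strands were searched. A match describes the letters in the window and is not evidence of binding.

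The stages matched their labels. All 8 muscle differentiation genes found (Mymk was not found under that symbol) were higher in differentiated cells, with a median log2 difference of 10.57. Their summed level in non-stretched libraries was between 9.04 ± 0.824 and 14.9 ± 3.07 CPM (SD, n = 4) in myoblasts, and between 14166 ± 1033 and 14658 ± 692 CPM after differentiation. CPM is a gene's count relative to the scaled total of its library, on 1 scale for all 48 libraries. Over the 24 libraries of a stage, Acta1 had the highest mean in myoblasts, 4.25 CPM. Embryonic myosin heavy chain, Myh3, averaged 1.28 CPM there. After differentiation Myh3 (4456 ± 278 CPM) and Acta1 (4361 ± 319 CPM) had the highest CPM. These values are not scaled to gene length, so they do not rank the amounts of different transcripts. Of 8 genes of proliferating or unfused cells, 7 were lower in differentiated cells and Pax7 was higher. Mki67, a proliferation marker, still averaged 116 CPM there against 558 CPM in myoblasts. Of 10 genes of other cell types, Pecam1, Cdh5, Ptprc, Epcam, Krt8, Adipoq and Col2a1 averaged at most 0.226 CPM in either stage, whereas Cd68 averaged 1.15 and 0.582 CPM and the fibroblast gene Dcn 3.92 and 95.9 CPM before and after differentiation. The neuronal tubulin gene Tubb3 averaged 230 and 62.2 CPM and had the highest CPM of the 10 in myoblasts, as Dcn had in differentiated cells. Tubb3 moved with stretch: it rose by 0.56 (log2) in myoblasts at 6 h and by 0.53 and 0.82 in differentiated cells at 3 and 6 h. The summed level of the 10 genes was 195 ± 3.31 CPM without and 280 ± 20.3 CPM with stretch in myoblasts at 6 h. Dcn fell by 0.40 in myoblasts at 6 h (adjusted p = 0.0391). Of the 8 genes of proliferating or unfused cells, 0 passed at 1 h in either stage. In myoblasts Ccnb1 (0.13) and Id3 (0.33) rose and Top2a fell (-0.087) at 3 h, and Myf5 (0.40) and Id3 (0.28) rose and Pax7 (-0.23), Ccnb1 (-0.14) and Top2a (-0.13) fell at 6 h. In differentiated cells Ccnb1 (0.34), Cdk1 (0.22) and Top2a (0.12) rose at 3 h, and Myf5 rose (0.51) and Id3 fell (-0.60) at 6 h. The muscle gene Myog fell in myoblasts by 0.82 at 3 h and 0.54 at 6 h, and had a log2 fold change of -1.25 at 1 h (adjusted p = 0.0501). The median over the 7 muscle genes tested in myoblasts was -0.38 at 1 h and -0.40 at 3 h, and -0.081 over the 6 tested at 6 h. The part of these genes in the results was not tested.

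Spry1 separated the stages more than any other member. In the 12 non-stretched myoblast libraries Spry1 ran from 0.942 to 2.21 CPM with a median of 1.38, and in the 12 non-stretched differentiated libraries from 48.7 to 60.6 CPM with a median of 54.0. No library of one stage came near the range of the other, and the counts behind these values were 57 to 122 in myoblasts and 2955 to 3836 in differentiated cells. Means were 1.53 ± 0.382 before and 54.5 ± 3.03 CPM after differentiation (SD, n = 12 per stage), and the log2 difference was 5.13 (SE 0.072, adjusted p = 8.5e-29, edgeR quasi-likelihood test with Benjamini-Hochberg adjustment), or 35.1-fold. The other 5 members were lower in differentiated cells. Spry4 ran from 23.2 to 28 CPM before and from 8.64 to 12.2 CPM after differentiation, with medians of 25.7 and 10.8 and a log2 difference of -1.29 (SE 0.040, adjusted p = 4.4e-21). Spred1 differed by -0.93, Spred3 by -0.78, Spry2 by -0.58 and Spred2 by -0.43, and in each case all 12 differentiated libraries lay below all 12 myoblast libraries. Of 15439 genes tested, 45.6% were higher and 45.0% lower in differentiated cells, so 1 member higher and 5 lower is read against a background in which nearly every gene differed. Myotubes and cells that had not fused were sequenced together, and fewer cells of a type and less RNA per cell cannot be told apart in these bulk samples.

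Per kilobase of exon, the order of the members changed with stage. In non-stretched myoblasts the means per kilobase were 37.0 CPM for Spry2, 24.1 for Spred1, 20.5 for Spred2, 5.33 for Spry4, 1.97 for Spred3 and 0.527 for Spry1. In differentiated cells they were 25.2 for Spry2, 18.7 for Spry1, 15.5 for Spred2, 12.9 for Spred1, 2.24 for Spry4 and 1.17 for Spred3. Ranges over the 12 libraries of neighbours in either order did not overlap, the closest being Spry1 (16.7 to 20.8) and Spred2 (14.5 to 16.5) in differentiated cells. Per kilobase of the longest transcript the orders were the same, and Spred3 was at 3.02 and 1.79 CPM. Spry1 thus went from last to second place, and Spred1, above Spred2 in myoblasts, was below it in differentiated cells. Summed over the 3 Sprouty genes, the level per kilobase was 42.8 ± 1.65 CPM before and 46.2 ± 2.20 CPM after differentiation (SD, n = 12). Spry2 made up 86.3% of the Sprouty sum in myoblasts and 54.6% in differentiated cells, and Spry1 went from 1.23% to 40.6%. The Spred sum was 46.5 ± 1.09 CPM per kilobase in myoblasts and 29.5 ± 0.966 in differentiated cells.

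**Figure D1:**
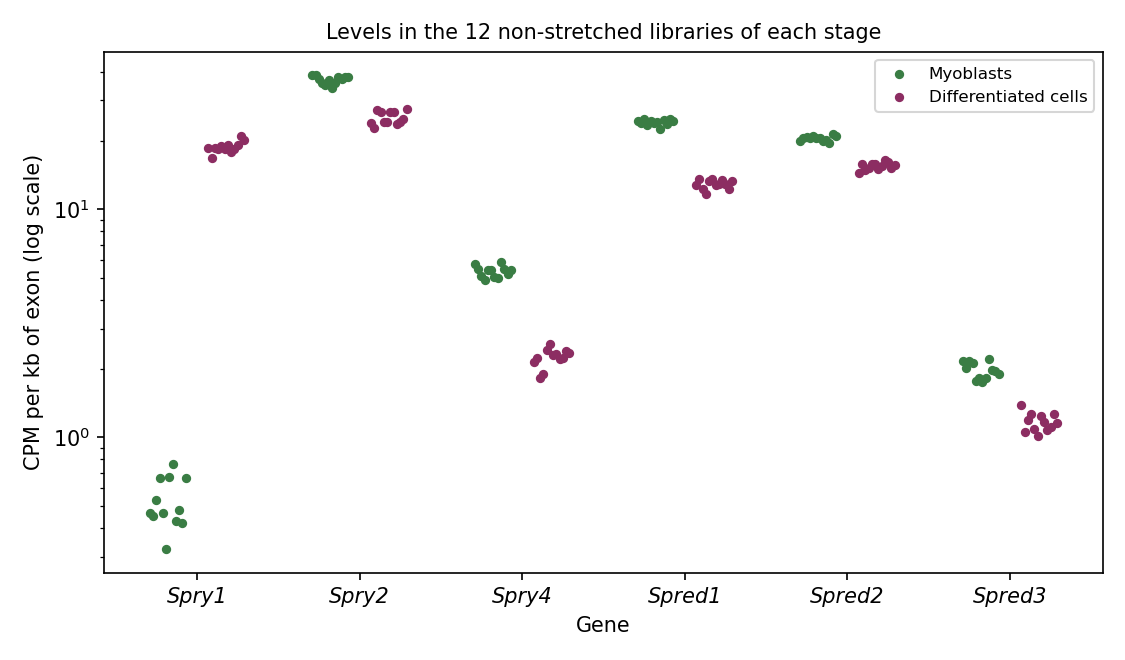
Level per kilobase of exon of each member in the 12 non-stretched libraries of each stage, on a log axis, with a point for each library. Spry1 is at 0.527 CPM per kilobase in myoblasts and 18.7 in differentiated cells, whereas the other 5 members are lower in differentiated cells.

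Pathway genes differed by stage in both directions. Receptors were higher for 10 and lower for 2 of 12 tested, and Ras-ERK core genes for 14 and 6 of 21. Ligands were higher for 10 and lower for 8 of 20, and partners and regulators of Sprouty and Spred for 9 and 6 of 17. The last list, called partners below, holds regulators such as the ETS factor genes Ets1 and Ets2 beside binding partners. ERK target genes were higher for 5 and lower for 12 of 19, with a median log2 difference of -0.37, and other feedback inhibitors for 6 and 11 of 18, with a median of -0.42. The median of the 6 members was -0.68, and that of all genes tested 0.0068.

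Time on the membrane without stretch was compared first, as the background for stretch. In non-stretched myoblasts 1 of 6 members differed between 3 and 1 h, against 1.47% of 15684 genes tested, and 0 differed between 6 and 1 h (edgeR, 0 of 6 at an unadjusted p under 0.05, 0 by DESeq2), against 1.88%. The 1 member was Spred3, at 13.5, 12.6, 13.5 and 13.1 CPM at 1 h and 11, 11.4, 10.9 and 11.3 CPM at 3 h. The libraries did not overlap, and the log2 difference was -0.23 (SE 0.053, adjusted p = 0.0279). In non-stretched differentiated cells 0 members differed between 3 and 1 h (edgeR, 0 at an unadjusted p under 0.05, 0 by DESeq2), against 0.00% of 16266 genes. Between 6 and 1 h the count was also 0 (edgeR, 1 at an unadjusted p under 0.05, Spry1, 0 by DESeq2), against 0.0123%, or 2 genes. That all-gene count rested on replicate 4 and on the method. Without stretched replicate 4, 86 genes were higher and 213 lower at 6 h, by DESeq2 55 and 116, and with the title code in the model 193 and 332, with 0 members in each.

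Whether stretch changed the inhibitors was asked in 6 comparisons of 4 stretched with 4 non-stretched libraries. Of 36 pairs of member and comparison, 16 passed an adjusted p of 0.05, with 10 higher and 6 lower in stretched cells, against 18.3% of 91173 gene tests in the same 6 comparisons. Their absolute log2 fold changes ran from 0.092 to 0.44, and 0 of the 36 pairs reached the limit of 0.58 that was set beside the adjusted p (edgeR, the test against that limit, glmTreat, also gave 0).

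**Figure D2:**
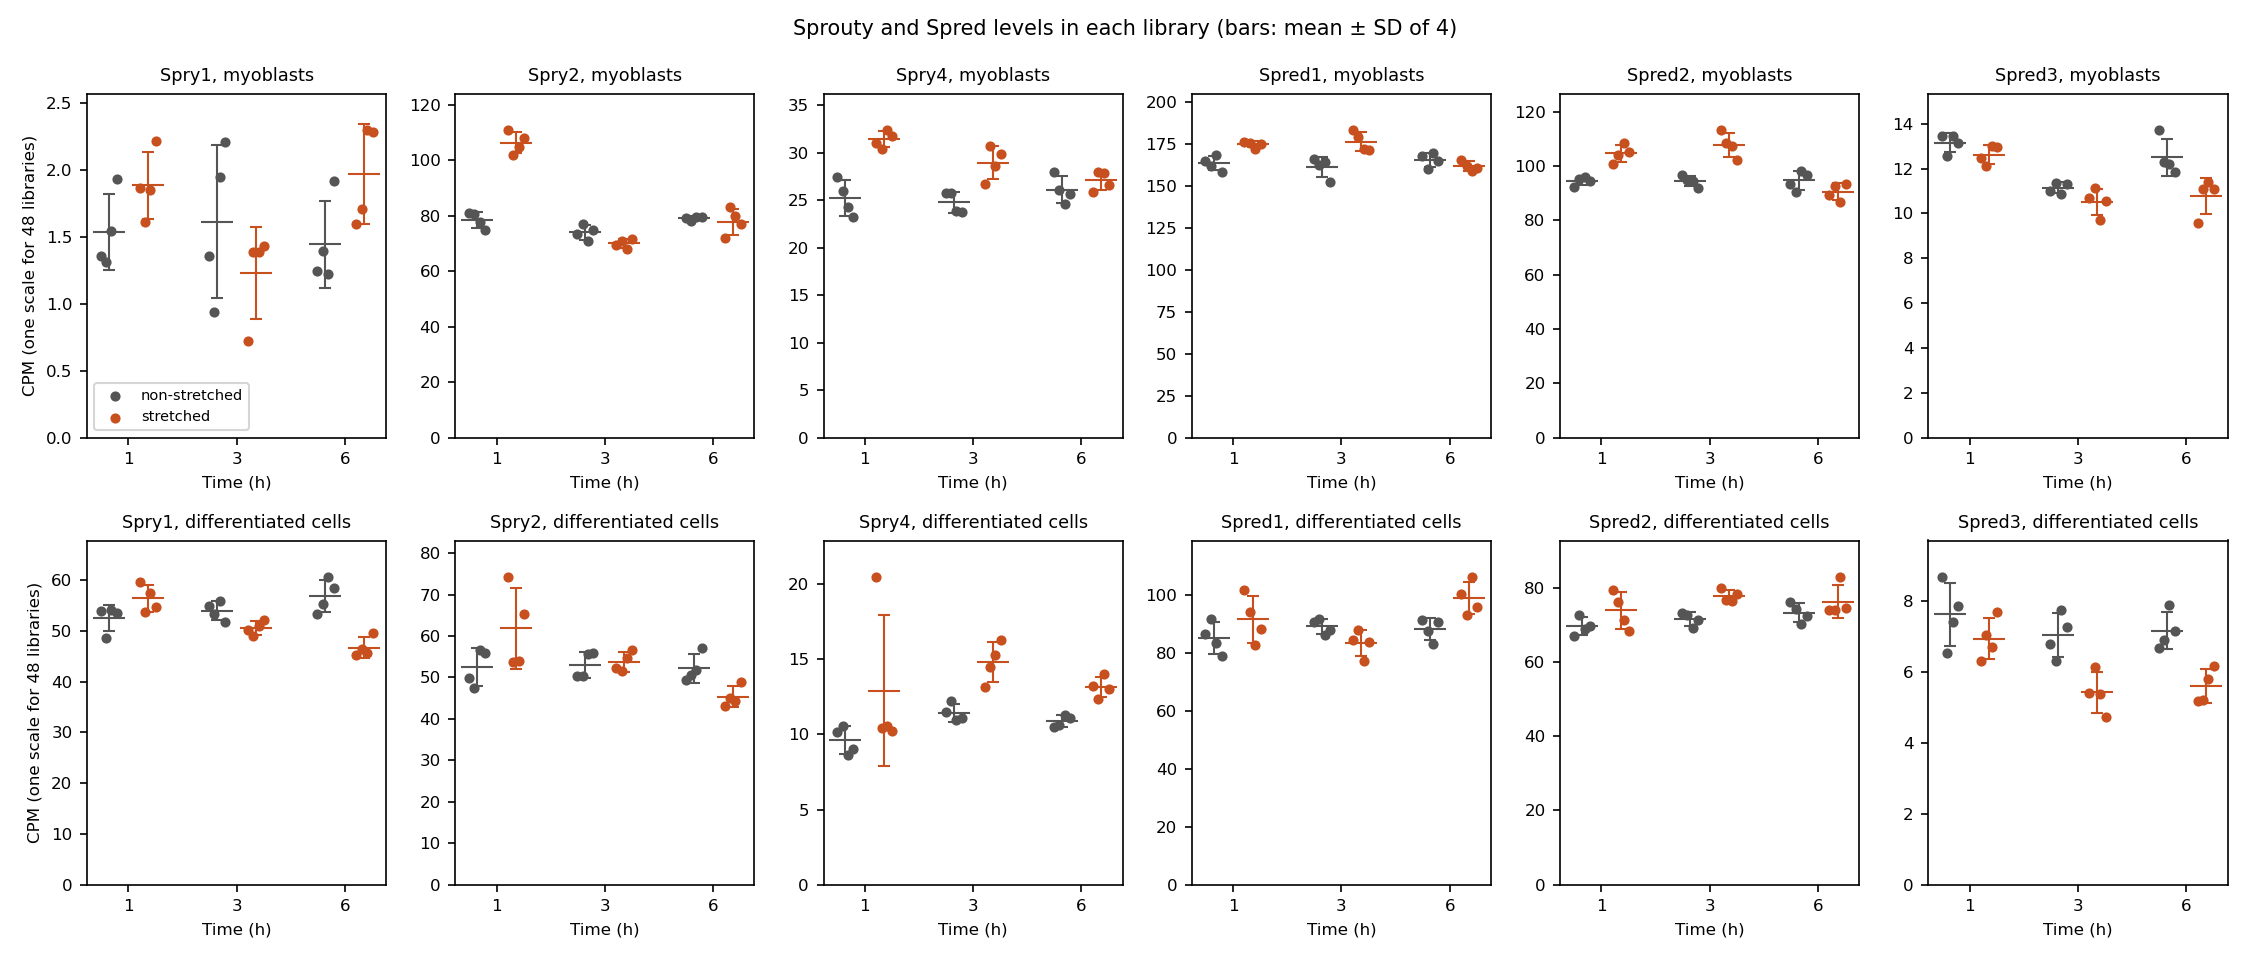
CPM of each member in each of the 48 libraries by stage, time and stretch, with points for libraries and bars for mean and SD of 4. Stretched libraries of Spry2 in myoblasts at 1 h sit between 102 and 111 CPM, above the non-stretched range of 74.7 to 80.8, and stretched replicate 4 of differentiated cells at 1 h stands alone for Spry4 at 20.5 CPM.

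In myoblasts at 1 h, 3 of 6 members rose, against 1.67% of 14938 genes tested, and 0 fell (edgeR, the 4 members with an unadjusted p under 0.05 were all higher, and DESeq2 also gave 0), against 4.24%. Spry2 was at 80.8, 80.6, 77.8 and 74.7 CPM in non-stretched and 111, 102, 105 and 108 CPM in stretched libraries. All 4 stretched libraries lay above all 4 non-stretched ones, and Spry2 rose by 0.44 (log2, SE 0.036, adjusted p = 5.6e-05), or 35.3%. Spry4 was at 27.4, 25.9, 24.3 and 23.2 CPM without stretch and 31.1, 30.4, 32.4 and 31.8 CPM with it. These groups did not overlap either, and Spry4 rose by 0.31 (SE 0.049, adjusted p = 0.00304). Spred2 was at 92.4, 95.2, 95.9 and 94.4 CPM without stretch and 101, 104, 108 and 105 CPM with it. Again every stretched library was higher, with a log2 fold change of 0.15 (SE 0.031, adjusted p = 0.0172). Spred1 was higher in all 4 stretched libraries by 0.095 without passing the test (adjusted p = 0.0967), and Spry1, at 1.31 to 2.22 CPM, and Spred3 overlapped between groups. Replicate 7, which stood furthest from its group in both conditions, did not end the calls of Spry2 and Spry4, whose adjusted p with any 1 of the 8 libraries left out was at most 0.000677 and 0.0156. Of all genes, 250 were higher and 634 lower, against 156 and 449 without non-stretched replicate 7, 158 and 453 without replicate 10, and 127 and 351 or 123 and 349 without stretched replicate 9 or 10. The call of Spred2 was lost without non-stretched replicate 7 (adjusted p = 0.0612) or stretched replicate 9 or 10 (0.0650 and 0.0755). Spred1 passed without non-stretched replicate 9 (0.0375), by DESeq2 (0.0213) and with all 24 myoblast libraries in the model (0.0334).

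ERK target genes rose for 12 and fell for 0 of 19 in the same comparison, with a median log2 fold change of 0.26 against 0.0024 for all genes and 0.22 for the 6 members. The immediate early transcription factor genes Fos, Fosb and Egr1 rose by 2.16, 2.09 and 1.40. Other feedback inhibitors rose for 6 of 18, led by the phosphatase genes Dusp1 (0.98), Dusp5 (0.44) and Dusp6 (0.36), and fell for 2, Socs3 (-0.22) and Rasa2 (-0.21). Among ligands 3 of 15 rose, the EGF family members Ereg (0.54), Areg (0.42) and Hbegf (0.39). Of 12 receptors Fgfr4 fell by 0.50, of 21 core genes the adaptor gene Gab1 rose by 0.21, and of 17 partners Siah1b, a ubiquitin ligase gene, rose by 0.18.

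In myoblasts at 3 h, 3 members rose, against 16.0% of 14813 genes, and 1 fell, against 15.8%. Spred2 was at 96.8, 94.8, 94.6 and 92.0 CPM without stretch and 113, 109, 107 and 102 CPM with it. The groups did not overlap, and the log2 fold change was 0.18 (SE 0.030, adjusted p = 0.000537). Spred1 was at 166, 163, 164 and 153 CPM without and 183, 179, 172 and 171 CPM with stretch. All 4 stretched libraries were above the others, by 0.12 (SE 0.030, adjusted p = 0.00969). Spry4 was at 25.7, 25.8, 23.9 and 23.7 CPM without and 26.7, 30.7, 28.6 and 29.8 CPM with stretch, again without overlap, and rose by 0.21 (SE 0.046, adjusted p = 0.00329). Spry2 was at 73.2, 77, 70.8 and 74.8 CPM without and 69.5, 70.8, 68.0 and 71.6 CPM with stretch. These groups overlapped, and the log2 fold change was -0.092 (SE 0.029, adjusted p = 0.0288). Leaving out non-stretched replicate 8 or 10 or stretched replicate 7 or 9 ended this call, with adjusted p of 0.0944, 0.0809, 0.0723 and 0.0933. Spry1 (-0.40, adjusted p = 0.268) and Spred3 (-0.095, adjusted p = 0.181) overlapped between groups. With any 1 library left out Spry1 ran from -0.60 to -0.21, the weakest being without stretched replicate 7 or non-stretched replicate 10, and Spred3 from -0.12 to -0.058.

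ERK targets rose for 11 and fell for 3 of 19 at this time, with a median of 0.098 against -0.0074 for all genes and 0.013 for the members. Fosb (0.71), Myc (0.32) and Fosl1 (0.29) rose, and Egr1 (-0.63), Etv1 (-0.28) and Etv5 (-0.13) fell. Other feedback inhibitors rose for 7 of 18 (Dusp5 0.34, Dusp9 0.30 and Dusp4 0.29 first) and fell for 3 (Dusp8 -0.41, Il17rd -0.27 and Dusp1 -0.14). In the list of partners and regulators 7 of 17 rose, led by the ETS factor genes Ets1 (0.44) and Ets2 (0.40) and by Siah1b (0.21). Mknk1 fell by 0.17. Counts that rose and fell were 3 (Ereg, Fgf7, Hbegf) and 2 (Tgfa, Hgf) of 16 ligands, 1 (Fgfr1) and 2 (Erbb3, Pdgfra) of 12 receptors, and 4 (Frs2 and Map2k2 among them) and 3 (Ksr1, Araf, Mapk3) of 21 core genes.

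In myoblasts at 6 h, 0 members rose (edgeR, 1 at an unadjusted p under 0.05, Spry1, 0 by DESeq2), against 14.1% of 14938 genes, and 1 fell, against 13.0%. Spred3 was at 13.7, 12.3, 12.2 and 11.8 CPM without stretch and 9.58, 11.1, 11.4 and 11.1 CPM with it. All stretched libraries lay below the others, replicate 7 lowest, and Spred3 fell by 0.20 (SE 0.065, adjusted p = 0.0436). The call was lost without non-stretched replicate 7, 8 or 9 (adjusted p = 0.131, 0.0800 and 0.0657) or stretched replicate 7, 8 or 10 (0.106, 0.0582 and 0.0548), and with the title code in the model (0.0511). Spry1 was at 1.24, 1.39, 1.22 and 1.92 CPM without and 1.60, 1.71, 2.30 and 2.29 CPM with stretch. The groups overlapped through non-stretched replicate 10, and the log2 fold change was 0.47 (SE 0.18, adjusted p = 0.0696). Spry1 passed without non-stretched replicate 10 (0.64, adjusted p = 0.0219), without stretched replicate 7 (0.56, 0.0444) and with the title code in the model (0.46, 0.0363). Log2 fold changes of the other 4 members lay between -0.048 for Spred2 and 0.071 for Spry4. With any 1 library left out Spry2 ran from -0.034 to 0.027 and Spry4 from 0.042 to 0.11. Spred2 ran from -0.066 to -0.030, and Spred1 from -0.031 to -0.0066.

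ERK targets rose for 3 (Dusp4 0.18, Epha4 0.17, Fosl1 0.17) and fell for 5 of 19 (Egr1 -0.54, Egr2 -0.51 and Etv1 -0.35 first), with a median of -0.057 against 3.5e-05 for all genes and -0.011 for the members. Other feedback inhibitors rose for 4 of 18 (Dusp2 0.26, Dusp7 0.21 and Dusp4 first) and fell for 2 (Errfi1 -0.16, Dusp6 -0.12). Rises and falls were 2 (Tgfa, Pdgfa) and 4 (Fgf5, Btc and Hbegf first) of 16 ligands, 2 (Kdr 1.26, Fgfr1 0.38) and 2 (Fgfr4 -0.59, Pdgfra -0.29) of 13 receptors, 2 (Hras, Map2k1) and 3 (Rps6ka1, Rps6ka3, Frs2) of 21 core genes, and 2 (Siah2, Tesk1) and 1 (Siah1a) of 17 partners.

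The change of the stretch effect with time was tested in the model of all 24 myoblast libraries. Between 3 and 1 h, 1 member differed, against 10.9% of 15684 genes: the effect on Spry2 was lower by 0.53 (log2) at 3 h (difference -0.53, SE 0.050, adjusted p = 1.1e-07). Between 6 and 1 h, 4 members differed, against 21.1%, each with the smaller value at 6 h: Spry2 (-0.44, adjusted p = 8.4e-07), Spry4 (-0.24, 0.0139), Spred2 (-0.20, 0.00182) and Spred1 (-0.11, 0.0454, and 0.0504 with RLE factors, another scaling). Between 6 and 3 h, 3 members differed, against 26.5%: Spred2 (-0.22, 0.000400), Spred1 (-0.13, 0.0165) and Spry1 (0.88, SE 0.32, adjusted p = 0.0468). For Spry1 stretched replicate 7 at 3 h, at 0.721 CPM, was the lowest of all myoblast libraries. Spry2 and Spry4 thus had their largest rise at 1 h and Spred2 and Spred1 at 3 h, though for Spry4 and for both Spred genes the effects at 3 and 1 h were not shown to differ (adjusted p from 0.403 to 0.854).

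In differentiated cells at 1 h, 0 members rose, against 0.193% of 15538 genes, and 0 fell, against 0.470% (edgeR, 1 at an unadjusted p under 0.05, Spry2, and 0 by DESeq2). Spry4 was at 10.2, 10.6, 8.64 and 9 CPM without stretch and 20.5, 10.4, 10.5 and 10.2 CPM with it. The value of 20.5 CPM belongs to stretched replicate 4, and the other 3 stretched libraries lay within the non-stretched range. The log2 fold change of Spry4 was 0.42 (SE 0.21, adjusted p = 0.642) with that library and 0.12 without it (adjusted p = 0.902). Spry2 was at 49.7, 47.4, 56.6 and 55.9 CPM without and 74.1, 53.8, 53.9 and 65.4 CPM with stretch. Replicate 4 was again the highest, and the log2 fold change was 0.24 (SE 0.11, adjusted p = 0.560) with it and 0.14 without it (adjusted p = 0.855). Within title codes the Spry2 difference was 0.15 for B25 and 0.22 for B28, where 1 stretched library remained, and with the code in the model, which also takes out replicate 4, Spry2 passed (0.18, adjusted p = 0.0317). The remaining members overlapped between groups, from -0.13 for Spred3 to 0.11 for Spred1. Without replicate 4 these 2 values were -0.093 and 0.053, and with any 1 library left out they ran from -0.20 to -0.068 and from 0.053 to 0.16.

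Calls in this comparison moved with single libraries. With 30 genes higher and 73 lower in all 8 libraries, leaving out a non-stretched one (replicates 7 to 10) gave 4 and 6, 4 and 7, 5 and 7, and 8 and 18. Leaving out stretched replicate 7, 8 or 9 gave 14 and 18, 8 and 15, and 59 and 147. No member passed in any of these. With all 8 libraries the counts also moved with the model, to 117 and 207 by DESeq2, 56 and 102 without a filter and 112 and 180 with the title code, and to 188 and 365 with all 24 libraries of the stage. With replicate 4, 2 of 19 ERK targets rose (Fosb 4.01, Fos 2.76), 2 of 18 other feedback inhibitors (Dusp1 0.96, Dusp10 0.29) and 1 of 21 core genes (Gab1 0.27), and no receptor, ligand or partner passed. The median over ERK targets was 0.43, over the members 0.10 and over all genes -0.00017. Without it, 10 of 19 ERK targets, 4 of 18 other feedback inhibitors and 1 of 20 ligands rose, with 73 genes higher and 103 lower of 15734 tested, and still 0 members. The median of the members was then 0.064.

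In differentiated cells at 3 h, 2 members rose, against 10.8% of 15513 genes, and 1 fell, against 11.4%. Spry4 was at 11.5, 12.2, 10.9 and 11.1 CPM without stretch and 13.1, 14.5, 15.3 and 16.3 CPM with it. The groups did not overlap, and Spry4 rose by 0.37 (SE 0.067, adjusted p = 0.00299), or 29.7%. Spred2 was at 73.2, 72.7, 69.2 and 71.3 CPM without and 79.9, 76.6, 76.4 and 78.2 CPM with stretch. Every stretched library was higher, by 0.12 (SE 0.028, adjusted p = 0.0115). Spred3 was at 6.79, 6.31, 7.75 and 7.27 CPM without and 5.41, 6.14, 5.39 and 4.73 CPM with stretch. Every stretched library was lower, and Spred3 fell by 0.37 (SE 0.090, adjusted p = 0.0139), with -0.18 within code B25 and -0.57 within B28. Spry1 (-0.093, adjusted p = 0.0704), Spred1 (-0.098, 0.102) and Spry2 (0.018, 0.820) overlapped between groups. With any 1 library left out Spred1 ran from -0.12 to -0.063 and Spry2 from -0.0070 to 0.045. Spry1 passed without non-stretched replicate 10 (0.0456), and Spred1 without stretched replicate 8 (0.0494) and with the title code in the model (0.0342). With all 24 libraries of the stage in the model Spry4 and Spred2 did not pass (0.0854 and 0.0594), and with stretched replicate 4 of 1 h set aside from it, a fit chosen after the data were seen, both did (0.000224 and 0.0328).

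ERK targets rose for 10 and fell for 3 of 19 in this comparison, with a median of 0.19 against -0.0013 for all genes and -0.037 for the members. Fosl1 (0.96), Fosb (0.77) and Myc (0.45) rose, and Fos (-0.46), Etv1 (-0.43) and Etv5 (-0.15) fell. Other feedback inhibitors rose for 6 of 18, led by Errfi1, an inhibitor of the EGF receptor (0.74), Dusp5 (0.73) and Dusp4 (0.41), and fell for 2 (Il17rd -0.22, Dusp16 -0.14). Ligands rose for 5 of 20 (Hbegf 0.79, Nrg1 0.57 and Pdgfb 0.57 first) and fell for 2 (Fgf21 -0.45, Hgf -0.29). Rises and falls were 3 (Fgfr3, Pdgfrb, Fgfr1) and 3 (Erbb3, Erbb2, Met) of 12 receptors, 1 (Ptpn11) and 5 (Frs3, Ksr1 and Gab1 first) of 21 core genes, and 5 (Ets2, Siah1b and Siah2 first) and 1 (Mknk1) of 17 partners.

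In differentiated cells at 6 h, 2 members rose, against 11.5% of 15433 genes, and 3 fell, against 10.8%. Spry1 was at 53.3, 55.4, 60.6 and 58.4 CPM without stretch and 45.2, 46.4, 45.7 and 49.6 CPM with it. All stretched libraries were lower, and Spry1 fell by 0.29 (SE 0.048, adjusted p = 0.00290), or 18.1%. Spry2 was at 49.3, 50.6, 51.8 and 57.1 CPM without and 43.1, 45.1, 44.2 and 48.9 CPM with stretch. The highest stretched and the lowest non-stretched library nearly met, and Spry2 fell by 0.21 (SE 0.055, adjusted p = 0.0228). Spry4 moved the other way, from 10.5, 10.6, 11.3 and 11.1 CPM to 13.2, 12.4, 14.0 and 13.0 CPM. No library overlapped, and Spry4 rose by 0.27 (SE 0.053, adjusted p = 0.00584). The 3 Sprouty genes thus moved in different directions in the same libraries.

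Of the Spred genes at this time, Spred3 was at 6.68, 6.90, 7.88 and 7.16 CPM without and 5.17, 5.22, 5.80 and 6.17 CPM with stretch. Every stretched library was lower, and Spred3 fell by 0.36 (SE 0.083, adjusted p = 0.0118). Spred1 was at 91.5, 87.5, 83.1 and 90.5 CPM without and 100, 93.2, 106 and 95.9 CPM with stretch. Every stretched library was higher, by 0.16 (SE 0.046, adjusted p = 0.0275). Spred2 overlapped between groups (0.056, adjusted p = 0.387), with stretched replicate 9 at 82.8 CPM and the other 3 between 73.9 and 74.4. With any 1 library left out the log2 fold change of Spred2 ran from 0.015 to 0.072. The call of Spred1 was lost without non-stretched replicate 8 or 9 (adjusted p = 0.0741 and 0.0548) or stretched replicate 7 or 9 (0.0686 and 0.0640), and that of Spry2 without stretched replicate 7, 8 or 9 (0.0684, 0.0514 and 0.0570). With all 24 libraries of the stage in the model Spry4 (0.212) and Spry2 (0.0833) did not pass, and with replicate 4 of 1 h set aside both did (0.00389 and 0.0314). Of all genes at 6 h, 1772 were higher and 1666 lower, against 1131 and 1093 without non-stretched replicate 8.

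ERK targets rose for 5 (Fosl1 0.61, Epha4 0.35 and Dusp4 0.32 first) and fell for 8 of 19 (Egr2 -0.61, Egr3 -0.55 and Egr1 -0.51 first), with a median of -0.11 against -0.00012 for all genes and -0.075 for the members. Other feedback inhibitors rose for 3 of 18 (Dusp4, Rasa1 0.27, Dusp16 0.22) and Socs3 fell by 0.31. Ligands fell for 5 of 20 (Igf1 -0.59, Fgf21 -0.53 and Hbegf -0.34 first) and receptors for 3 of 12 (Pdgfra -0.66, Fgfr4 -0.47, Fgfrl1 -0.24), and none of either rose. Rises and falls were 1 (Sos2) and 3 (Ksr1, Mapk3, Araf) of 21 core genes and 1 (Siah2) and 1 (Ets2) of 17 partners.

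**Figure D3:**
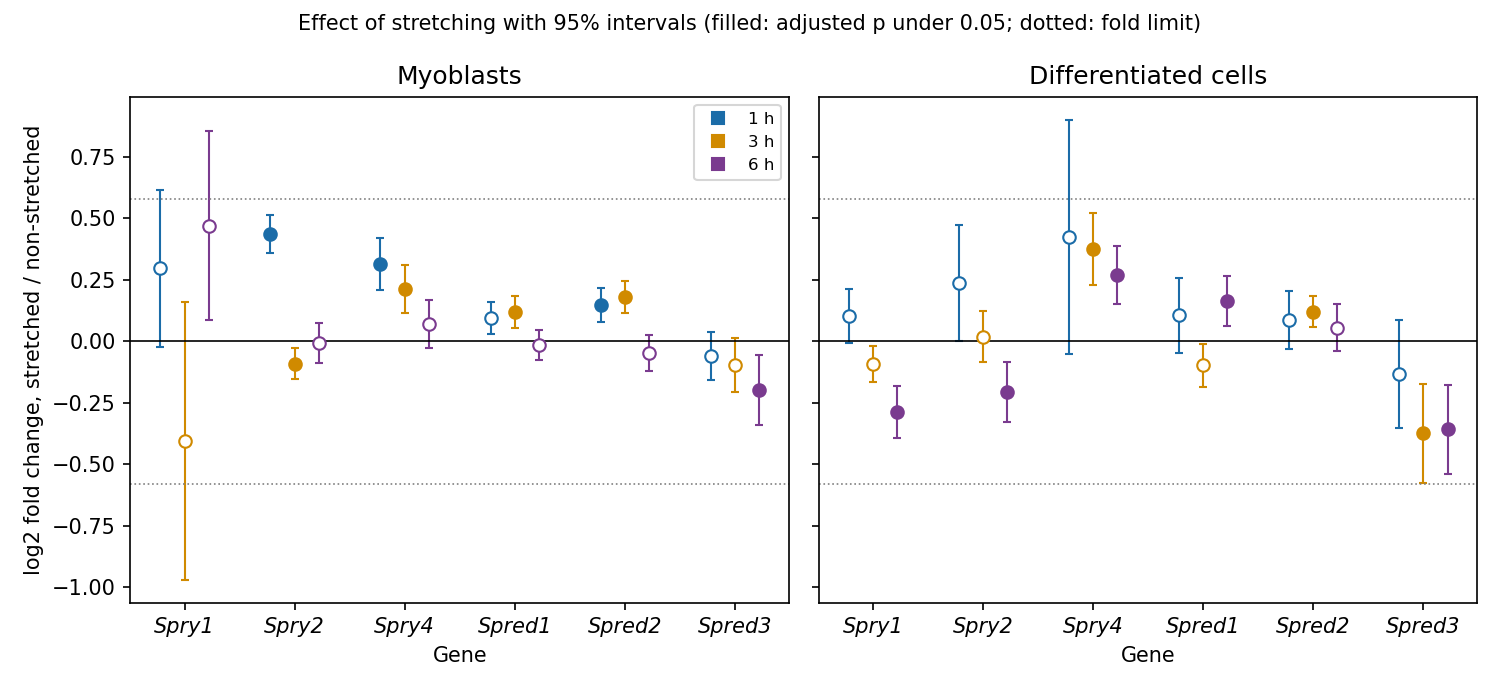
Log2 fold change of each member, stretched against non-stretched, at each time in each stage, with 95% confidence intervals. Spry2 in myoblasts goes from 0.44 at 1 h to -0.092 at 3 h, and in differentiated cells at 6 h Spry4 is at 0.27 while Spry1 is at -0.29.

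Over time in differentiated cells, 0 members differed in their stretch effect between 3 and 1 h (edgeR, 2 at an unadjusted p under 0.05, Spry1 and Spred1, and 1 by DESeq2, Spry1), against 5.15% of 16266 genes. Of all genes, 442 were higher and 396 lower in this difference, against 708 and 622 without stretched replicate 4 and 884 and 862 with the title code. Spry1 had a difference of -0.20 (adjusted p = 0.0676), which passed by DESeq2 (0.0371) and with the title code in the model (0.0372). Between 6 and 1 h, 2 members differed, against 11.9%: Spry2 (-0.44, SE 0.12, adjusted p = 0.0156) and Spry1 (-0.39, SE 0.063, adjusted p = 0.000327). Without stretched replicate 4 these were -0.35 (0.0224) and -0.36 (0.000413). Between 6 and 3 h, 2 members differed, against 12%: Spred1 (0.26, 0.0356) and Spry1 (-0.19, 0.0464, and 0.0517 with RLE factors). Spry2 had a difference of -0.22 (adjusted p = 0.246), which passed with the title code in the model (0.00737). No difference between times passed for Spry4 (adjusted p from 0.713 to 0.953), its SE of 0.21 being the largest among the members. Its differences of -0.053 between 3 and 1 h and -0.16 between 6 and 1 h turned to 0.26 (adjusted p = 0.114) and 0.15 (0.325) without stretched replicate 4.

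Stages were then compared in a model of all 48 libraries. The stretch effect differed between stages for 0 members at 1 h (edgeR, 1 at an unadjusted p under 0.05, Spry2, 0 by DESeq2), against 0.170% of 17044 genes, and for 0 at 3 h (2 at an unadjusted p under 0.05, Spred1 and Spred3, 0 by DESeq2), against 1.01%. Without stretched replicate 4 the genes that differed at 3 h went from 111 higher and 61 lower to 150 and 119. At 6 h it differed for 1 member, Spry1, against 5.98%: the effect in differentiated cells minus that in myoblasts was -0.74 (SE 0.19, adjusted p = 0.0157), with 0.47 in myoblasts, at 2.30 CPM at most, and -0.29 in differentiated cells. Spred1 had differences of -0.23 at 3 h (adjusted p = 0.0747) and 0.20 at 6 h (0.0557). Without stretched replicate 4 of 1 h both passed (0.0283 and 0.0272). For Spry2 at 1 h, called in myoblasts and not in differentiated cells, the difference was -0.20 (SE 0.091, adjusted p = 0.777) and -0.30 without replicate 4 (0.173), so the stages were not shown to differ. For Spry4, which rose at 1 and 3 h in myoblasts and at 3 and 6 h in differentiated cells, the differences were 0.10 at 1 h (adjusted p = 0.985), 0.15 at 3 h (0.823) and 0.22 at 6 h (0.487). Without replicate 4 the first turned to -0.20 (0.740).

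**Figure D4:**
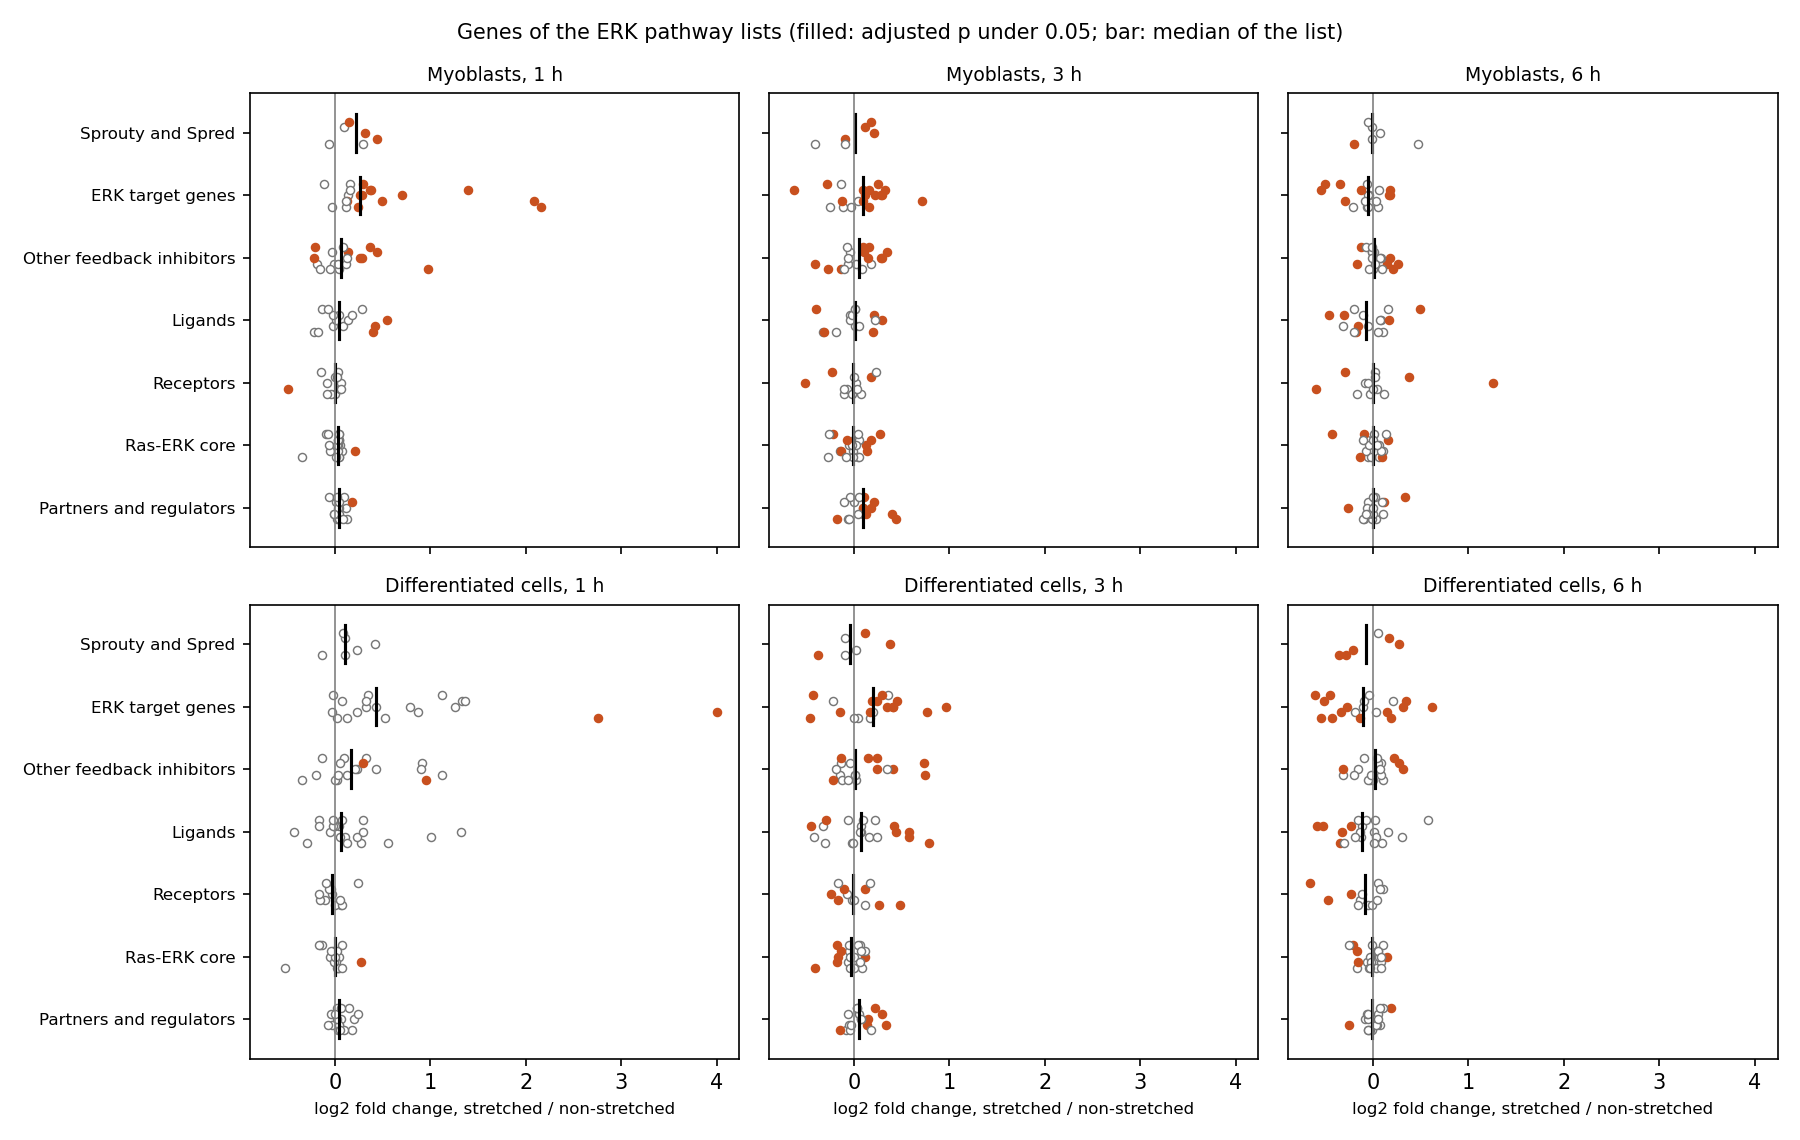
Log2 fold change, stretched against non-stretched, of the genes in each pathway list by stage and time, with points for genes and bars for list medians. The median of ERK targets is 0.26 in myoblasts at 1 h and -0.057 at 6 h, beside 0.22 and -0.011 for the 6 members.

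Title codes separated a few member levels within non-stretched cells. Spry4 averaged 26.5 CPM in the 6 libraries of code B27 and 24.2 CPM in the 6 of B31, without overlap. Spry2 in differentiated cells averaged 49.6 CPM for B25 and 55.5 CPM for B28, also without overlap. Within codes the Spry2 effect in myoblasts at 1 h was 0.40 for B27 and 0.48 for B31, that of Spry4 0.20 and 0.43, and that of Spred2 0.13 and 0.17. For Spry4 in differentiated cells at 3 h the values were 0.22 for B25 and 0.52 for B28, and for Spred3 in myoblasts at 6 h they were -0.33 for B27 and -0.095 for B31. Both codes had the same direction in each of these cases.

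The genes whose log2 CPM followed each member most closely were ranked by Pearson correlation over the 24 libraries of a stage, among 11401 genes in myoblasts and 11871 in differentiated cells with a mean count of at least 100. In myoblasts Spry2 was most like Csrnp1 (0.96), Dusp1 (0.96) and Pim3 (0.91). Spry4 was most like Ereg (0.88), Yrdc (0.86) and Odc1 (0.84), and Spred1 was most like Clint1 (0.89), Senp6 (0.88) and Ube2d2a (0.88). Spred2 was closest to Ldlrad3 (0.95), Lrp12 (0.94) and Specc1 (0.94), and Spred3 to Mapk11 (0.87), Mir17hg (0.84) and Snx5 (0.81). Spry1 fell under the count minimum in myoblasts. In differentiated cells Spry1 was closest to Serinc2 (0.82), Ssu72 (0.82) and Ppp6r2 (0.81), Spry2 to Lif (0.90), Id3 (0.89) and Tcf7l1 (0.89), and Spry4 to Pde12 (0.89), Clint1 (0.89) and Mcl1 (0.88). Spred1 was closest to Phf6 (0.90), Zfp664 (0.89) and Mettl16 (0.89), Spred2 to Ptpn14 (0.89), Gsk3b (0.89) and Aff1 (0.89), and Spred3 to Krba1 (0.89), Prpf40b (0.89) and Neil1 (0.86). The points share library, depth, stretch group and title code. Of these 33 places, 13 were kept with Spearman correlation and 17 with the code removed. With the code removed, 0 of the 3 genes named for Spry1 and 0 of the 3 for Spred1 were kept in differentiated cells. No other member there kept more than 2, whereas in myoblasts each member kept at least 2.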

How the data were processed

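RNA-seq of 48 libraries was analysed from gene counts as deposited. The authors aligned paired reads with STAR to mouse build mm10 and estimated counts with Salmon. All 47480 symbols of each table were used, and the members were found by symbol. edgeR 4.0.16 (R 4.3.3, limma 3.58.1) was run with filterByExpr, TMM factors and quasi-likelihood tests, Benjamini-Hochberg adjustment over all genes tested, an adjusted p threshold of 0.05 and a log2 fold change limit of 0.58. The 6 stretch comparisons used 8 libraries each. Time differences used the 24 libraries of a stage, the stage comparison the 24 non-stretched libraries, and stage differences in effect all 48. CPM used TMM factors over all 48 libraries, and levels per kilobase the union of GENCODE exons. Total counts of 48447318 to 77080730 per library set the precision. The scripts were tested on simulated data. DESeq2 1.42.0, other scalings, no filter, the title code, a replicate block and leaving out each library were alternatives. Named pathway genes are the 3 of largest absolute log2 fold change in each direction, per list and comparison, past the adjusted p. All 6 members, the stage markers and the 3 genes most like each member are named too. Tubb3 and single genes outside that rule were named after their values were seen. Some genes, such as Dusp4, Dusp6, Grb2 and Nf1, are in 2 lists. A core gene that the rule would name is not reported here. Members and lists were chosen with earlier results of these data known.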

Additional observations from a re-analysis of the deposited data

Results flagged for a closer look

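In 72 groups of 4 libraries (6 members in 12 groups), 5 held a library far from the other 3. Chance alone marks about 1 in 20 groups. They were Spry4 in differentiated cells at 1 h, stretched replicate 4 (20.5 CPM), Spry1 in differentiated cells at 1 h, non-stretched replicate 8 (48.7 CPM), Spry1 in myoblasts at 3 h, stretched replicate 7 (0.721 CPM), Spred2 in differentiated cells at 6 h, stretched replicate 9 (82.8 CPM), and Spred3 in myoblasts at 6 h, stretched replicate 7 (9.58 CPM).

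The stretch effect differed between stages, by the test of the difference, for Spry1 at 6 h (-0.74 log2, differentiated minus myoblasts). It differed between times for 12 of 36 pairs of member and contrast, against 14.5% of 95850 gene tests. In myoblasts Spry2 differed by -0.53 between 3 and 1 h. Between 6 and 1 h the differences were -0.44 for Spry2, -0.24 for Spry4, -0.11 for Spred1 and -0.20 for Spred2, and between 6 and 3 h they were 0.88 for Spry1, -0.13 for Spred1 and -0.22 for Spred2. In differentiated cells Spry1 differed by -0.39 and Spry2 by -0.44 between 6 and 1 h, and Spry1 by -0.19 and Spred1 by 0.26 between 6 and 3 h. The causes were not tested.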

How the results depend on the processing

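All 16 stretch effects past the threshold kept their direction under every alternative run, and 8 of them also stayed past it. Counts of members past the threshold moved as follows. In myoblasts at 1 h the count that rose, 3, became 4 by DESeq2, 4 with all 24 libraries and 2 to 4 on leaving out single libraries. In myoblasts at 3 h the 1 member that fell became 0 to 1 on leaving out single libraries. In myoblasts at 6 h the count that rose, 0, became 1 with the title code in the model, 1 with the replicate block and 0 to 1 on leaving out single libraries, and the count that fell, 1, became 0, 0 and 0 to 1. In differentiated cells the count that rose at 1 h, 0, became 1 with the title code, a model that also takes out replicate 4. At 3 h the count that rose, 2, became 0 with all 24 libraries in the model and was 2 with 23, and the count that fell, 1, became 2 with the title code, 2 with the replicate block and 1 to 2 on leaving out single libraries. At 6 h the count that rose, 2, became 1 with all 24 libraries, 2 with 23, 1 with the replicate block and 1 to 2 on leaving out single libraries. With the block it was Spred1 that did not pass (0.16, adjusted p = 0.0668). The count that fell, 3, became 2 with all 24 libraries and 2 to 3 on leaving out single libraries. The fit of 23 libraries was chosen after seeing the data. For the effect at 3 h minus 1 h in differentiated cells, 0 became 1 by DESeq2 and 1 with the title code, and for 6 h minus 3 h, 2 became 1 with RLE factors, 3 with the title code and 3 with the replicate block, where Spry2 passed (0.00992). In myoblasts 4 for 6 h minus 1 h became 3 with RLE factors. For the difference between stages, 0 at 3 h became 1 without stretched replicate 4, and 1 at 6 h became 2 by DESeq2 and 2 without stretched replicate 4. Of all genes in myoblasts at 1 h, 250 were higher and 634 lower, against 398 and 729 by DESeq2, and 480 and 960 with all 24 libraries. In differentiated cells at 1 h these were 30 and 73, against 117 and 207 by DESeq2, 56 and 102 without a filter, 188 and 365 with all 24 libraries, 112 and 180 with the title code, and 66 and 90 with the replicate block. Between times without stretch, genes higher and lower in myoblasts were 155 and 76 at 3 h minus 1 h (374 and 191 by DESeq2, 242 and 116 with the title code) and 162 and 133 at 6 h minus 1 h (323 and 213 by DESeq2, 272 and 223 with the title code, 244 and 207 with the replicate block). In differentiated cells 0 and 0 at 3 h minus 1 h became 2 and 1 by DESeq2, 4 and 0 with the title code and 3 and 0 with the block, and 1 and 1 at 6 h minus 1 h became 146 and 280 with the block. Stretch effects there differed for 442 and 396 genes between 3 and 1 h (806 and 754 with the block), 1094 and 834 between 6 and 1 h (1711 and 1547 with the title code, 1650 and 1467 with the block), and 1130 and 822 between 6 and 3 h (1678 and 1424, 1587 and 1365). Between stages at 1 h, 26 and 3 became 62 and 9 by DESeq2 and 33 and 9 without replicate 4. The causes were not tested. Same-numbered libraries deviated together (r over 0.1) in 11 of 23 pairs, with r from -0.084 to 0.39, so the numbers were not taken as pairs and the replicate block stands here only. Other scaling factors moved the median of all genes by at most 0.013. DESeq2, which also changes the test and the genes tested, moved it by at most 0.016. Of the named likeness genes, 13 of 33 were kept with Spearman and 17 of 33 with the code removed. Those of Spry1 and Spred1 in differentiated cells were not kept with the code removed. Depth limits Spry1 in myoblasts, with 57 to 122 counts per non-stretched library.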
